A study of Drosophila melanogaster with 2 samples.

Results

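Bowl binding was examined at 8 genes that pattern the proximodistal axis of the Drosophila limb: Distal-less (Dll), dachshund (dac), tiptop (tio), teashirt (tsh), aristaless (al), apterous (ap), bric a brac 1 (bab1) and bric a brac 2 (bab2). They are 8 of 13986 annotated protein-coding genes. A region was given to a gene if its summit lay in the gene body or if the gene had the nearest protein-coding transcription start site. Under this rule the genes held 5 of the 2198 peaks in the authors' pooled list and 357 of the 132019 candidate regions from which that list was drawn. The genes were chosen by their role in the limb and with the peak signals of these same lists in view, and Dll was selected on its pooled signal and on the unequal signals of the replicates. Those values are therefore given as descriptions, with no test.

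Bowl, a DNA-binding zinc-finger protein related to Odd-skipped, acts in the gut, the epidermis and the joints of the leg. Its nuclear level is lowered by the protein Lines and restored by Drumstick. Limb axis genes are switched on in nested domains: teashirt and homothorax mark proximal cells, dachshund intermediate cells, and Distal-less distal cells. Within the distal domain, bric a brac, apterous and aristaless divide the tarsus and the tip. In the embryo, Dll first marks the limb primordia of the thorax and appendages of the head, while the leg itself grows later, in the larval imaginal disc.

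Chromatin came from 2 biological replicates of 1 group, whole embryos collected between 0 and 24 h from a fly strain with a bowl-eGFP insertion, so that Bowl carried enhanced green fluorescent protein. It was sheared by sonication (the labels give sizes of 200 to 800, without a unit), precipitated and sequenced (ChIP-seq). For the antibody the labels' description names GFP, while a separate antibody field reads bowl. The labels do not say whether untagged Bowl was also present, and no untagged strain, second stage or dissected tissue was analysed here. All embryonic cell types and stages were mixed, so strong binding in few cells and weak binding in many cannot be told apart.

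The signal of a region is a score from the authors' peak caller, with no stated scale. The irreproducible discovery rate (IDR) measures how well ranks repeat between a pair of peak sets, and a −log10 IDR of 2 stands for a rate of 0.01. Besides the pooled list, the authors deposited a smaller one of 1557 peaks marked as conservative, and lists of 1662 peaks for replicate 1 and 772 peaks for replicate 2. Coordinates are on the dm6 assembly. The pooled list had a median signal of 82.6, and failing candidates, those that stayed under a −log10 IDR of 2 in the pooled ranking, had a median of 18.4. Read depth is unknown, since no read counts were given, so no counting interval can be attached to a signal.

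Among the 8 genes, Dll, tio, tsh and ap had a pooled peak, and dac, al, bab1 and bab2 had none. This is 4 of 8 genes, where 12.9% of all protein-coding genes had one under the same rule. In the conservative list the same 4 genes had 1 peak each, with 9.8% of all genes called. The list of replicate 1 held 2 peaks at Dll and 1 each at tio and ap, with 10.2% of all genes called. The list of replicate 2 held 1 peak, at Dll, with 5.35% of all genes called. Of all pooled candidates, 1.66% were listed as peaks. Since these lists were in view when the genes were chosen, nothing is read from the difference between the genes and these shares.

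The Dll start site carried by far the strongest signal of the 8 genes. Dll (FBgn0000157, 2R, 24814822 to 24835667, plus strand) encodes a homeodomain transcription factor required for distal limb structures. Its main peak spanned 292 bp (2R, 24814575 to 24814866) and covered the single annotated start site, with the summit 80 bp upstream. The pooled signal was 696.7, which ranked 6 in both the pooled and the conservative list. It was 7.46 times the signal of the next strongest gene of the set, tio. The peak was in all 4 lists and had a −log10 IDR of 5 both in the pooled ranking and between the replicates.

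A second Dll peak lay further upstream, in intergenic sequence (2R, 24813650 to 24813959), with its summit 1017 bp before the start site. Its signal was 129.6, which ranked 490, and the start-site peak was 5.37 times as strong. The summits were 937 bp apart, and 615 bp separated the ends of the peaks. The upstream peak had a −log10 IDR of 3.66 in the pooled ranking but 1.18 between the replicates. It was in the pooled list and the list of replicate 1, and in neither the conservative list nor that of replicate 2. The other 29 candidates at Dll ended far lower, the strongest being an intronic region 5232 bp from the start with a signal of 31.8.

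**Figure D1:**
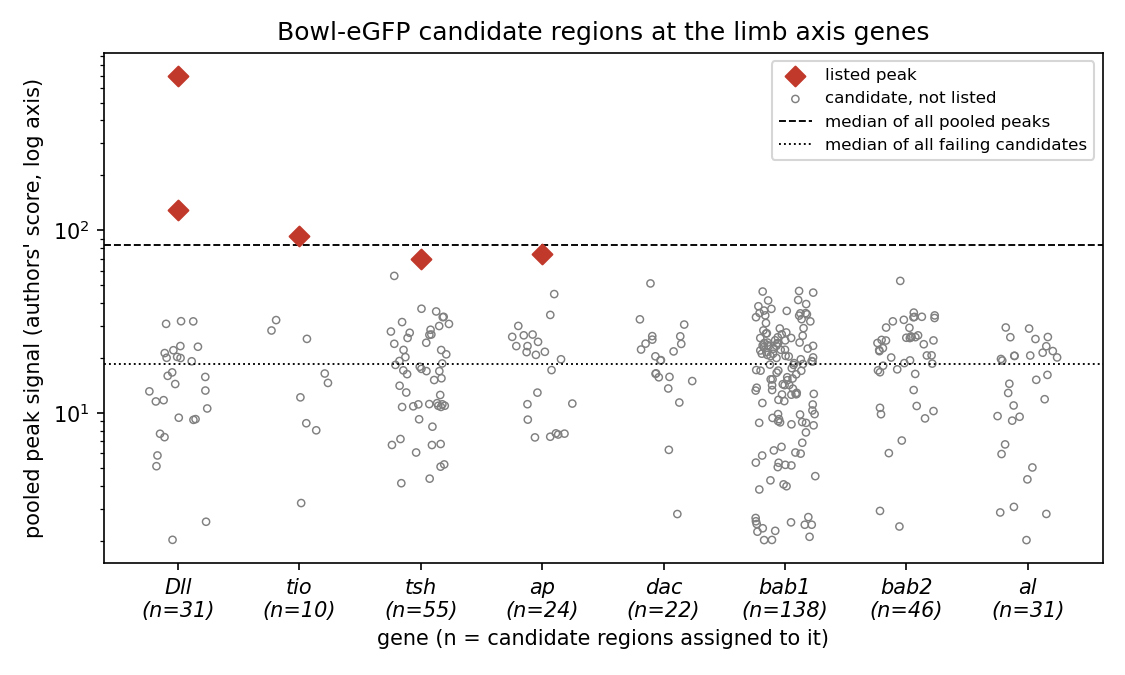
Pooled signal (authors' score, log axis) of all 357 candidate regions at the 8 genes, with the 5 listed peaks as filled diamonds and the others as open circles; the sideways spread of points carries no value. The Dll peaks at 696.7 and 129.6 and the tio peak at 93.4 lie above the median of all pooled peaks, 82.6, while the tsh and ap peaks lie below it.

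At the Dll start site the replicates differed by a larger ratio than at all but 1 of the other peaks among the 100 strongest of the pooled list. At the start site replicate 1 had a signal of 572.1 and replicate 2 a signal of 115.9, a 4.94-fold ratio and a log2 ratio of 2.30. At the upstream peak replicate 1 had 111.7 and replicate 2 had 19.2, a 5.82-fold ratio and a log2 ratio of 2.54. Replicate 1 was thus the higher at both Dll peaks. The start-site region was called in both replicates, with summits 19 and 16 bp to the left of the pooled summit, and a −log10 IDR of 5 within replicate 1 and 4.75 within replicate 2. At the upstream peak the replicate 1 summit was 3 bp from the pooled summit, and the replicate 2 summit 148 bp away, towards the start site. The −log10 IDR there was 4.38 within replicate 1 and 0.23 within replicate 2. The upstream ratio therefore rests on a replicate 2 region that did not pass the threshold.

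Replicate 1 had the higher signal at most peaks, so these ratios were set beside those of all pooled peaks. The comparison used the 2155 pooled peaks whose signals could be traced to a region in each replicate's own ranked list. Their median log2 ratio of replicate 1 over replicate 2 was 0.69, or 1.61-fold, with an SD of 0.77 across peaks, and replicate 1 was higher at 85.6% of them. A higher ratio than at the Dll start site was found at 48 peaks, or 2.23%, and a higher ratio than at the upstream Dll peak at 35, or 1.62%. Of the 48, 1 was among the 100 strongest peaks, where the SD was 0.45: only the promoter peak of lawc, ranked 51, had a higher ratio than Dll, with 339.9 in replicate 1 and 38.5 in replicate 2.

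**Figure D2:**
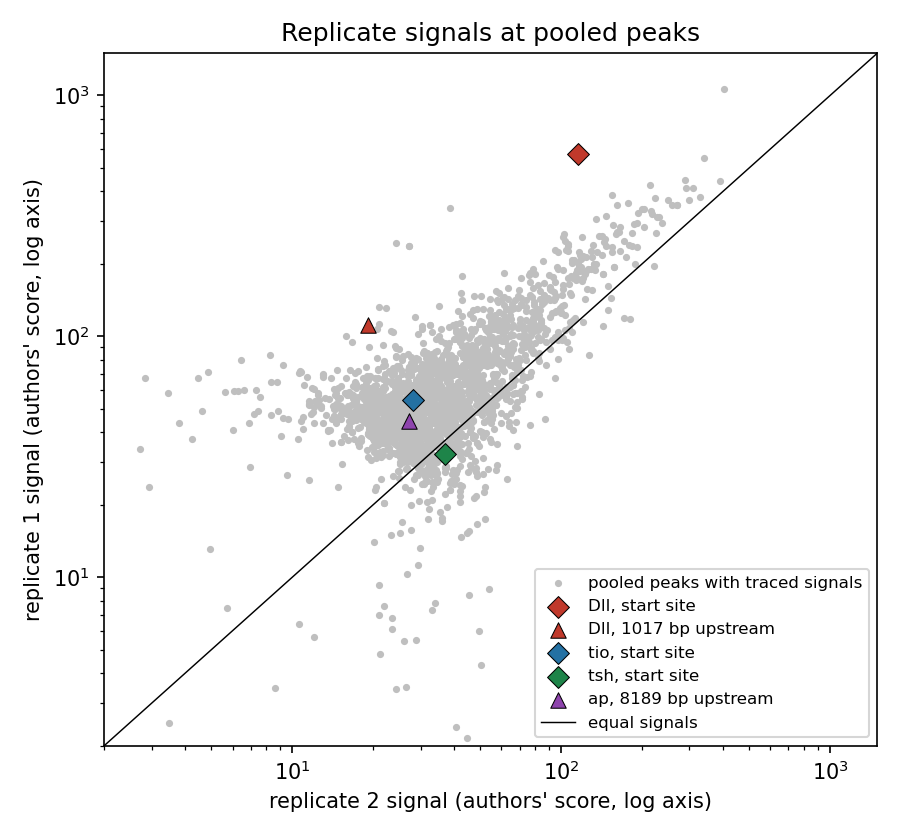
Signal in replicate 1 against signal in replicate 2 (authors' scores, both axes log) for the 2155 pooled peaks with traced signals, with the 5 peaks at the limb genes marked, diamonds at start sites and triangles upstream. The Dll peaks lie well above the line of equal signals, at 572.1 against 115.9 and at 111.7 against 19.2, tio and ap lie within the main body of peaks, and tsh lies just below the line.

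The peaks nearest to Dll in rank had smaller ratios. The 5 peaks ranked above it and the 5 below it had log2 ratios from 0.18 to 1.40, with a median of 0.46. Their replicate 1 signals ran from 349.5 to 1062 and overlapped the Dll value of 572.1. Their replicate 2 signals ran from 213.1 to 402.9, all above the Dll value of 115.9. All 10 were in both replicate lists, as was the Dll peak. In the list of replicate 1 the Dll peak ranked 2, and in that of replicate 2 it ranked 92. Since the list sizes differ, these ranks show no change by themselves. With 2 replicates the spread within a condition can be estimated only very imprecisely.

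**Figure D3:**
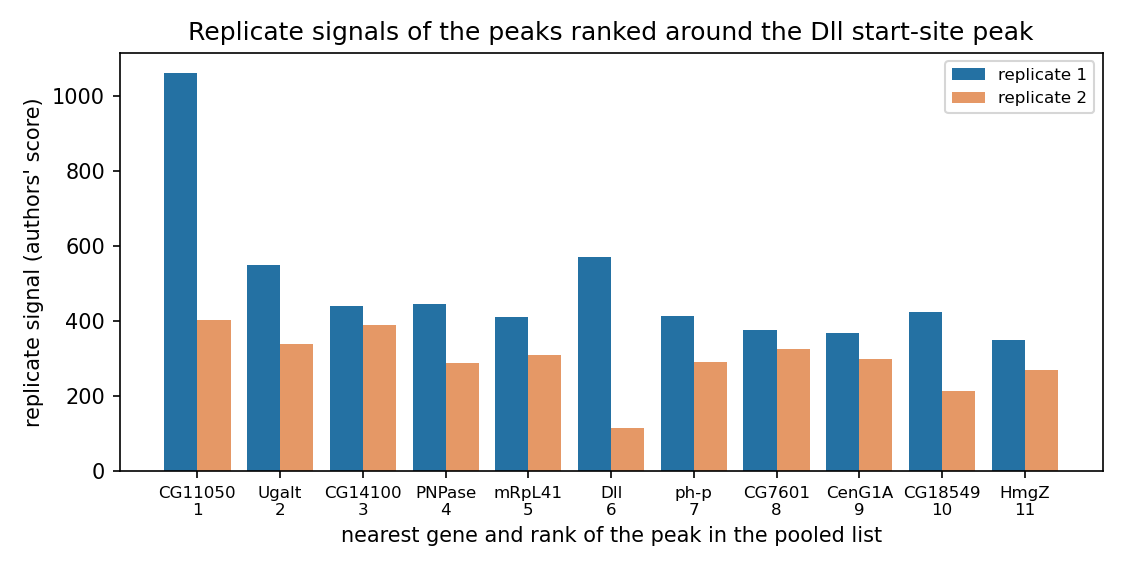
Signals of replicate 1 and replicate 2 (authors' scores, linear axis from 0) for the Dll start-site peak, ranked 6, and the 5 peaks on each side of it in rank, named by the nearest gene. The Dll bar of replicate 2, at 115.9, is the lowest of the 11 peaks shown, and its replicate 1 bar, at 572.1, is second only to the first peak, at 1062.

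The paralogues tsh and tio each carried 1 peak, both close to the start site. They encode related zinc-finger proteins and lie on arm 2L, 182196 bp apart. The peak of tio (FBgn0028979, 2L, 22019208 to 22025734, plus strand) was the stronger, with a signal of 93.4 and rank 891, and its summit lay 89 bp upstream of the first of 2 annotated start sites. The peak of tsh (FBgn0003866, 2L, 21828593 to 21837011, plus strand), a gene required for trunk and proximal limb identity, had a signal of 69.5 and rank 1524. Its summit lay 424 bp downstream of the start site, inside the gene. The peaks thus sat on opposite sides of the start sites.

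The replicates behaved differently at these paralogues. At tio replicate 1 had a signal of 54.3 and replicate 2 a signal of 28.1, a log2 ratio of 0.95, and 33.5% of pooled peaks had a higher one. At tsh replicate 1 had 32.5 and replicate 2 had 37.1, a log2 ratio of −0.19, and 91.2% of pooled peaks had a higher one. The tsh peak was the only 1 of the 5 at which replicate 2 was higher. The tio peak was in the list of replicate 1 alone, with a −log10 IDR of 2.47 within replicate 1 and 0.38 within replicate 2. The tsh peak was in neither replicate list, with 0.86 within replicate 1 and 1.23 within replicate 2, and passed only between the replicates (2.09) and in the pooled ranking (2.47).

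The tio promoter is the one start-site peak of the set whose bases are shown, and 2 candidates that fell just short of the threshold are printed beside it. All 3 are plus-strand dm6 sequence (RefSeq Release 6), 5′ to 3′. The tio stretch runs from the left end of the peak up to the base before the start site, chr2L:22018964-22019207. The bab1 and tsh stretches are the 100 bp on each side of the summit, chr3L:1093131-1093331 and chr2L:21814540-21814740. Capitals mark the words ACAGTGG and GAGAGAG, read on the minus strand and so printed as their reverse complements; the bab1 and tsh stretches held neither word and have no capitals.
tio promoter peak: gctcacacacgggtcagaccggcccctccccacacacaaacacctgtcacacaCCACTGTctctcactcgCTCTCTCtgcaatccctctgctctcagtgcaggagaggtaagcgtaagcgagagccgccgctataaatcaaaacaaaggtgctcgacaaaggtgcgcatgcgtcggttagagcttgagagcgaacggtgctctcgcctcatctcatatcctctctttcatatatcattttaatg
bab1 intronic candidate: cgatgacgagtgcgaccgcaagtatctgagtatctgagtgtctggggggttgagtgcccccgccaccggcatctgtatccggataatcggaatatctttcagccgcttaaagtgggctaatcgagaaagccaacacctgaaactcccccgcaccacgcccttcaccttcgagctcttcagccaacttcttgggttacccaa
tsh upstream candidate: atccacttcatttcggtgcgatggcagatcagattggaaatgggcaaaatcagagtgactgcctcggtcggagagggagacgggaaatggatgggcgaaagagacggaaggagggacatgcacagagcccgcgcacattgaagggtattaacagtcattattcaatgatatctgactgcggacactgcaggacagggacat

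ACAGTGG was searched because it was already known to be frequent in these peaks. The other words were CAGTAGC, the core of the preference of Odd-skipped proteins, GAGAGAG, the repeat bound by GAGA factor, and TAATTA, the core bound by many homeodomain proteins. Either strand counted, and the whole word had to lie within 100 bp of the summit. In the printed tio stretch, ACAGTGG ran from 22019017 to 22019023 and GAGAGAG from 22019034 to 22019040, 96 and 79 bp to the left of the summit. The first bases of that ACAGTGG lay outside the 100 bp window, so it does not count as held, and a second copy lay 152 bp to the right. ACAGTGG was therefore held by 0 of the 5 peaks, and by 10.3% of all pooled peaks and 2.90% of failing candidates. GAGAGAG was held by the tio peak and by the upstream Dll peak, 5 bp from its summit, and by 6.41% of pooled peaks and 2.78% of failing candidates. CAGTAGC was held by the ap peak alone, 23 bp from its summit, and by 2.41% of pooled peaks and 1.90% of failing candidates. TAATTA was in 0 of the 5 peaks, and in 12.97% of pooled peaks and 9.34% of failing candidates. None of the 4 words was found within 100 bp of the Dll start-site summit or the tsh summit, which says only that these letters are not in those windows.

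The peak of ap lay far from the gene. Apterous (FBgn0267978, 2R, 5706202 to 5727525, minus strand) is a LIM-homeodomain factor of the tarsus and the dorsal wing that in embryos is also expressed in muscles and neurons. The summit was 8189 bp upstream of the nearest of its 3 start sites, in intergenic sequence (2R, 5735559 to 5735868). The signal was 73.8, with 44.6 in replicate 1 and 27.3 in replicate 2. The log2 ratio of 0.71 was close to the median of all pooled peaks, and 49.2% of them had a higher one. The peak ranked 1374, with a −log10 IDR of 2.49 in the pooled ranking and 2.15 between the replicates. It was in the list of replicate 1 and not in that of replicate 2.

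**Figure D4:**
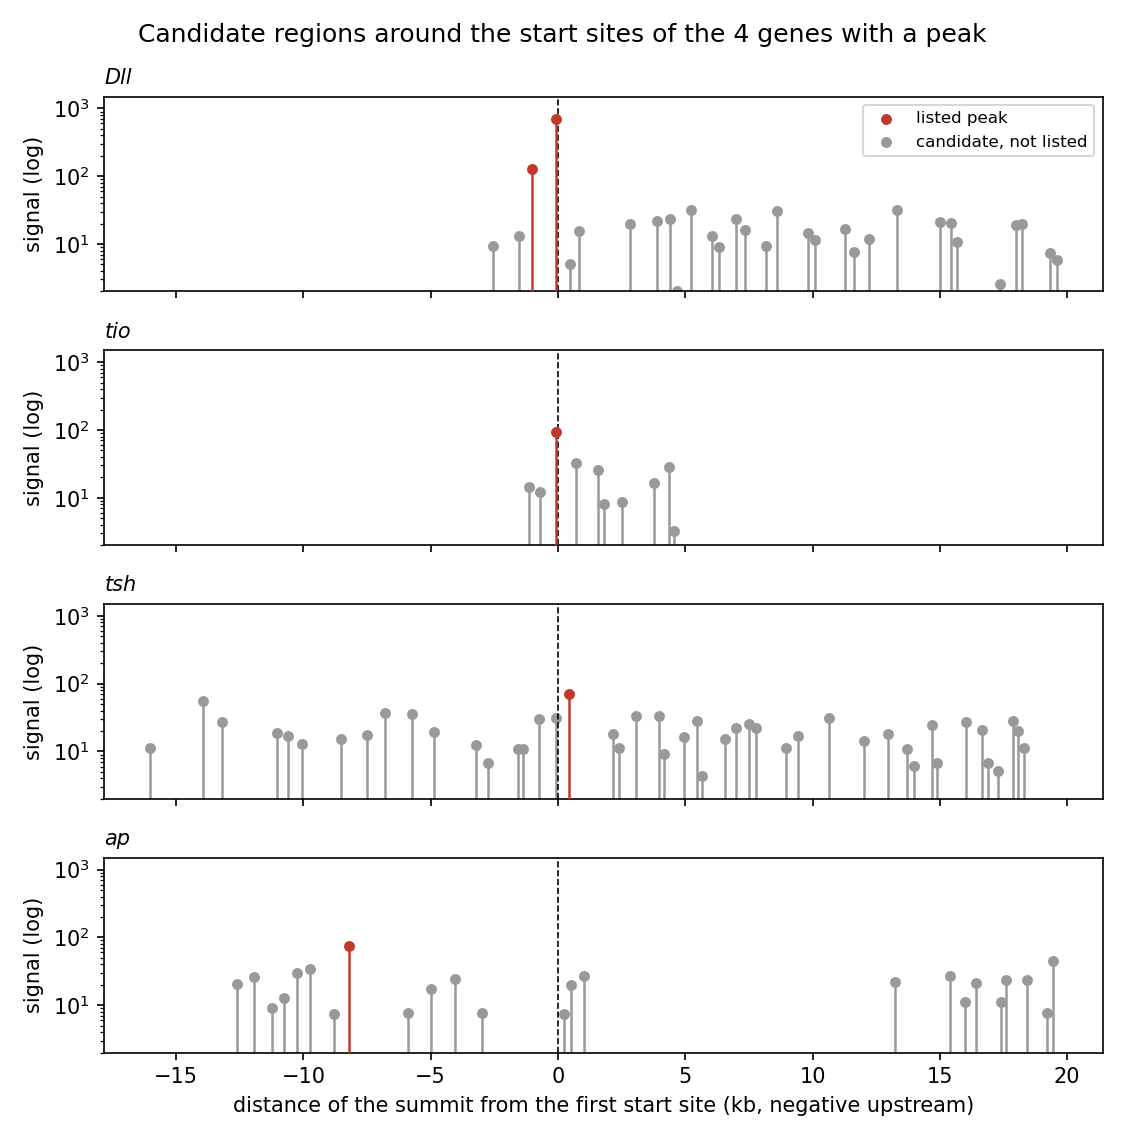
Pooled signal (authors' score, log axis) of the candidates assigned to Dll, tio, tsh and ap, by distance of the summit from the most upstream start site of the gene (kb, negative upstream), up to 20 kb either way. Listed peaks are in colour: at −80 and −1017 bp for Dll, −89 bp for tio, 424 bp for tsh and −8189 bp for ap.

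Across the 5 peaks, overlap with both replicate lists was found at 1, the Dll start site, where 29.1% of all pooled peaks overlapped both. The tsh peak overlapped neither, as did 29.3% of all pooled peaks. The upstream Dll peak and those of tio and ap overlapped the list of replicate 1 alone. At 4 of the 5 peaks replicate 1 had the higher signal, as it did at 85.6% of the 2155 pooled peaks with traced signals.

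The 5 peaks were richer in GC than most pooled peaks, a measure the selection did not use. Most of the strongest unlisted candidates at the same genes were too, but so are failing candidates in general. Within 100 bp of the summit, GC content was 65.2% at the Dll start site, 59.7% at the upstream Dll peak, 59.2% at tsh, 51.2% at ap and 49.3% at tio. All lay above 46.3%, the upper quartile of the 2198 pooled peaks, whose median was 38.3%. A higher GC content than at the Dll start site was found at 0.23% of pooled peaks, and a higher one than at tio, the lowest of the 5, at 16.7%. The strongest unlisted candidate of each gene had 48.3% at Dll, 47.3% at tio, 51.2% at tsh, 53.7% at ap, 62.2% at dac, 54.7% at bab1, 59.7% at bab2 and 32.8% at al, so that 7 of these 8 were also above 46.3%. Promoter peaks had a median of 38.8%. Failing candidates had a median of 46.8%, itself above 46.3%. Passing that value is thus usual among failing candidates, and nothing is read from the 7 of 8. Over the 2155 peaks with traced signals, GC content and the log2 replicate ratio had a Spearman rho of −0.04, given as a description because the peaks share libraries. Over 4 groups of peaks of rising GC content, the median log2 ratio was 0.81, 0.64, 0.59 and 0.76.

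At dac, al, bab1 and bab2 the strongest candidates stayed under the threshold. The candidate nearest to it lay in an intron of bab1, whose product is a BTB-domain regulator of the tarsus (FBgn0004870, 3L, 1036369 to 1101089, minus strand). This region (3L, 1093076 to 1093385), 7858 bp inside the gene, had a signal of 46.5 and a −log10 IDR of 1.75, with 41.9 in replicate 1 and 20.2 in replicate 2. The bab1 locus held the most candidates of the 8 genes, 138, and had no peak, while 71.2% of the 59 genes with a similar number of candidates (within a factor of 0.8 either way) had one. Its paralogue bab2 (FBgn0025525, 3L, 1140429 to 1177276, minus strand) is separated from it by 39339 bp, and its strongest candidate of 46 lay in coding sequence (3L, 1143546 to 1143855). It had a signal of 52.8, with 29.6 in replicate 1 and 23.8 in replicate 2, and a −log10 IDR of 0.50 in the pooled ranking and 1.47 between the replicates.

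Dachshund (dac, FBgn0005677, 2L, 16466512 to 16485998, minus strand), a nuclear cofactor of the intermediate leg, had 22 candidates. The strongest lay in coding sequence (2L, 16473280 to 16473589), 12563 bp from the start site, with a signal of 51.2 and a −log10 IDR of 1.02. Replicate 1 had 25.9 there and replicate 2 had 19.7. Aristaless (al, FBgn0000061, 2L, 378112 to 387439, plus strand), a homeodomain factor of the leg tip, had the weakest maximum of the set. Its strongest candidate of 31 lay 9454 bp upstream (2L, 368503 to 368812), with a signal of 29.4 and a −log10 IDR of 0.21. The replicates were nearly equal there, with 18.1 in replicate 1 and 17.6 in replicate 2.

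Just inside the threshold of 2 were the peaks of tsh at 2.47, ap at 2.49 and tio at 2.71. Just outside were the bab1 intronic region at 1.75, a region 13953 bp upstream of tsh (2L, 21814485 to 21814794) at 1.61 with a signal of 56.2, a second bab1 intronic region at 1.08 with a signal of 41.5, and the dac region at 1.02. The upstream tsh region again had the higher signal in replicate 2, at 30.4, and 25.2 in replicate 1. In all, 352 candidates at the 8 genes were not listed. Their median signal was 17.5, with a range of 2.01 to 56.2, against a median of 18.4 over all failing candidates.

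Ranked by the strongest candidate among 13115 protein-coding genes with any candidate, Dll stood at 8, tio at 884, ap at 1321, tsh at 1468, bab2 at 2718, dac at 2945, bab1 at 3817 and al at 9981. The order from Dll to tio spans a 7.46-fold step in signal. The tsh and ap signals, 69.5 and 73.8, differ by less than the replicates differ at either, and so do those of bab2 and dac, 52.8 and 51.2. The place of a gene in this order also depends on how many candidates it holds, from 10 at tio to 138 at bab1.

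The other genes of the limb axis were counted from a list of 38. A pooled peak was found at 15 of them, or 39.5%, where 12.9% of all protein-coding genes had one. They held 30 peaks in all, with 12 of these at bowl, drm, odd and sob, including 7 at bowl. The groups within the list are small and were chosen with these data known, so nothing is read from their counts. Of hth, exd, elB and noc, listed together without a shared role being implied, exd had no peak. The strongest peak of hth, whose homeodomain product keeps Exd in the nucleus, was 151.3 and lay in an intron. That of noc was 113.8 and that of elB 60.7. Of 4 genes that act upstream of Dll or beside it, Sp1, btd, disco and disco-r, 0 had a peak. Of 4 intermediate and wing hinge genes, zfh2 had a peak of 125.1 and nub one of 69.7. Of 7 tarsal genes, trn alone had one, of 95.9, with the summit 20 bp from its start site.

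Among 11 joint genes, 6 had a peak, with 12.9% of all protein-coding genes called. Those of the odd-skipped family reached 431.3 at bowl, 223.1 at drm, 86.4 at odd and 77.1 at sob. The strain carries a bowl-eGFP insertion, and the part of extra bowl copies in the bowl signal was not tested. The others were lin, which encodes the Bowl antagonist Lines, with 179.0, and N, the Notch receptor gene, with 141.1 in an intron. The N peak was given to N by the gene body, and its nearest start site belongs to another gene. Of 6 signal genes, dpp had a peak of 111.8 in an intron and wg one of 45.7, 124 bp from its start site. Of Chi and Bx, the 2 genes listed beside ap, Bx had a peak of 91.9 and Chi none. The start-site signal of Dll, 696.7, was above that of every gene on this list.

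Beside related gene sets, the 8 genes had a median strongest candidate of 61.2, against 154.8 for the 4 odd-skipped family genes (86.4 for the 3 other than bowl), 60.4 for 10 Hox genes and cofactors, 59.0 for the 38 other limb axis genes and 37.9 for all protein-coding genes with a candidate. Genes with a peak numbered 4 of 8, against 4 of 4, 6 of 10 and 15 of 38 in those sets. Over all protein-coding genes with a candidate they numbered 1804 of 13115, or 13.8%, and the differences were not tested. The sets overlap: bowl, odd, sob and drm are also on the limb axis list, and hth and exd are on that list and in the Hox set. For genes with a similar number of candidates the share with a peak was 28.8% for Dll and al, 13.1% for tio, 39.2% for tsh, 26.6% for ap, 23.8% for dac and 32.6% for bab2.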

How the data were processed

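ChIP-seq of Bowl-eGFP was deposited as peak lists on dm6, per the labels, for each of 2 replicates and for the pooled data. Which aligner and caller made them is not given in the sources used here. Peak signal is a score from the authors' caller, used as deposited to describe, rank and filter within a list. The deposited −log10 IDR was read with a threshold of 2. The lists hold no read counts, so depth is unknown, and no control data were analysed here. In the ranking between replicates, each unnamed set of signals was assigned by an exact match of coordinates and signal to the replicates' own ranked lists: of 126986 regions, the first set was identical to replicate 1 at 96262 and to replicate 2 at 0, and the second to replicate 2 at 88304 and to replicate 1 at 0.

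Summits were assigned with Ensembl release 115 gene models (BDGP6.54) and read against RefSeq Release 6 sequence, which is dm6. A promoter is within 500 bp of a protein-coding start site. Overlap of lists means at least 1 bp. Ratios are log2 of replicate 1 over replicate 2 signal with no pseudocount. No test was run: 1 group was profiled, and the genes, lists and words were chosen with earlier results of these data known. The genes named are the 8, every gene of the limb axis list with a peak (the list's Dl is Delta in the annotation), and the 5 peaks on each side of Dll in rank. Outside this rule, lawc and the genes without a peak exd, Sp1, btd, disco, disco-r and Chi were named after their values were seen. Alternatives changed the assignment rule, the list, the replicate, the IDR or signal minimum, the overlap, the pseudocount, the promoter width and the word window. Assignment, overlap and word counts were checked on simulated regions. Python 3.11.15, numpy 2.4.6, pandas 2.3.3, scipy 1.17.1 and matplotlib 3.10.9 were used.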

Additional observations from a re-analysis of the deposited data

How the results depend on the processing

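The number of genes with a peak, 4, and of peaks, 5, were 4 and 5 by the nearest start site alone and with unlisted candidates past the threshold added back, 3 and 4 with start sites within 5 kb, and 4 and 4 in the conservative list. With the gene body alone, 1 gene and 1 peak were left (tsh), since the other summits lie upstream of their genes. By that rule 7.76% of all protein-coding genes had a peak. A −log10 IDR of at least 3 left 1 gene and 2 peaks, both at Dll, and a signal at or above the pooled median left 2 genes and 3 peaks. The share of all genes was not computed for these minima or for the 5 kb limit, so nothing is read from those counts. Without one replicate, the genes numbered 1 to 3 and the peaks 1 to 4, the lower values coming from the list of replicate 2, which held Dll alone.

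The log2 replicate ratio at the Dll start site, 2.30, was 1.72 after subtracting the median of conservative peaks, 2.29 and 2.21 with pseudocounts of 1 and 10, and 2.30 from the replicates' own ranked lists. Overlap with both replicate lists stayed at 1 peak under a reciprocal overlap of 50% and with summits within 100 bp. The share of all genes with a peak ran from 5.35% to 12.9% over the settings for which it was computed. ACAGTGG was held by 1 of the 5 peaks in a 200 bp window. No paired analysis was possible because there is 1 group. The signals have no stated scale and no depth, and 2 replicates give only a very imprecise spread within a condition.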
